A study of Mus musculus with 96 samples.

Results

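The transcriptomes of islets from 8 mice after 4 weeks of a high-fat diet (HFD) or chow diet (CD) were compared. They were 4 HFD mice, HFD112, HFD113, HFD114 and HFD118, and 4 CD mice, CD101, CD103, CD104 and CD106, chosen by their tissue, diet and week labels. The 8 libraries were among 96 in the study, of which 48 were from islets taken every 4 weeks from week 4 to week 24. All were male C57BL/6N mice with no transgene or drug, bought at 4 weeks of age and given either LabDiet chow (CD) or Research Diets D12492 (HFD). The diets came from different makers and differ in ingredients other than fat, so what fat alone did cannot be told apart from the rest of the diet. Islets were released with collagenase P, separated on a gradient and picked by hand 2 times. Poly(A) RNA was read on the BGISEQ-500 platform. The values are fragment counts scaled to transcript length and to the mapped fragments of the library (FPKM), so each gene is expressed relative to everything else in its library. In sentences listing 4 values per diet, the mice stand in the order given above.

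Pancreatic islets hold beta cells, which secrete insulin, alpha cells, which secrete glucagon, delta cells, which secrete somatostatin, and a smaller number of pancreatic polypeptide cells. Beta cells take up glucose, burn it in mitochondria and release insulin granules when the resulting ATP closes KATP channels. Insulin is folded in the endoplasmic reticulum (ER), so insulin output loads the ER chaperones, and when a diet raises demand, mouse beta cells are known both to secrete more and to divide more. Week 4 is the first time point of the study, and the comparison asks what differs in islet RNA early in HFD feeding.

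The defining endocrine markers were high in all 8 libraries. Ins1 and Ins2 together took 67.1% to 70.8% of the summed FPKM in CD mice and 69.3% to 75.1% in HFD mice, with the highest share in HFD112. The share was 68.9% ± 1.86 in CD and 71.3% ± 2.60 in HFD mice (mean ± SD, n = 4 each), a difference of 2.31 percentage points that did not pass an exact two-sided permutation test (p = 0.257, the smallest possible being 0.0286). Between 11179 and 11843 genes reached 1 FPKM in a library. On the log2 scale, pairs of libraries correlated across genes at r = 0.987 to 0.995 within CD, 0.984 to 0.992 within HFD and 0.982 to 0.990 between the diets. Genes are not independent replicates, and these r values are descriptive. HFD118 stood apart, with 22 tested genes at 2-fold or more (in FPKM + 1) above all 7 other libraries, against 0 to 6 such genes in each of the others. Genes of acinar cells, the enzyme-secreting exocrine cells around islets, made up 1.51% to 4.05% of summed FPKM in CD and 0.627% to 1.88% in HFD mice. No read counts were used here, so the depth of each library is unknown.

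No gene passed the test for a difference between HFD and CD islets at week 4. With limma on log2(FPKM + 1), 0 of 11569 genes passed an adjusted p under 0.05 together with a log2 fold change of at least 1 in size (0%), and 0 passed the adjusted p alone (0%). The lowest adjusted p was 0.550. At an unadjusted p under 0.05, there were 854 genes, of which 548 had lower values in HFD (4.74% of those tested) and the rest higher ones (2.64%). The 4 HFD values and the 4 CD values did not overlap in 488 genes, with the HFD values above in 173 (1.5%) and below in the others (2.72%). These unadjusted and overlap counts describe the data and are not calls. The median log2 fold change over all genes was -0.03, with 37.97% of genes positive. The 95% confidence interval had a median half-width of 0.21 (quartiles 0.17 and 0.26) on the log2(FPKM + 1) scale. It lay wholly within 1 unit of that scale in either direction for 98.3% of genes. Differences of 2-fold or more in FPKM + 1 were therefore outside the interval for nearly all genes. For genes near 1 FPKM, a difference of more than 2-fold in FPKM itself can still lie inside it. Smaller differences were often not resolved with 4 mice a diet.

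The balance of higher and lower genes depended on how the libraries were scaled. Of the genes at an unadjusted p under 0.05, 64.2% were lower in HFD on the FPKM scale, but 618 were higher and 385 lower with median ratio scaling, and 722 were higher and 312 lower when the 2 insulin genes were left out of the total. With the acinar genes left out of the total, 36 were higher and 619 lower. Without HFD112, which had the highest insulin share, 685 were higher and 415 lower. With the acinar level as a covariate, 294 were higher and 271 lower. Shifts of the median of all genes with the scaling, from -0.11 to 0.01 on the log2 scale, are as large as many of the differences below. The medians and counts of the gene groups below stand against -0.03 and against the shares of 2.64% higher and 4.74% lower over all genes.

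The major islet hormones were nearly the same in HFD and CD islets, apart from lower values of somatostatin. Of the 9 hormone genes tested, 0 were higher and 2 lower at an unadjusted p under 0.05, with a median log2 fold change of -0.10. Ins1 measured 230549, 201937, 219344 and 190291 FPKM in the CD mice and 252710, 195674, 210237 and 192957 FPKM in the HFD mice. Ins2, the more abundant insulin gene (chr7:142678656-142753659, minus strand), measured 594077, 519781, 559681 and 525867 FPKM in the CD mice and 707231, 557825, 571536 and 608719 FPKM in the HFD mice. The diets overlapped in both insulin genes, with log2 fold changes of 0.01 and 0.15 and 95% intervals from -0.20 to 0.22 and from -0.04 to 0.34. Iapp, which encodes the amyloid peptide secreted together with insulin, had a log2 fold change of 0.11 and an adjusted p of 0.762 (limma). Gcg, encoding glucagon, measured 14326, 15018, 14885 and 14054 FPKM in the CD mice and 13106, 13595, 11752 and 14279.6 FPKM in the HFD mice. One HFD mouse, HFD118, lay within the CD range of Gcg, and the fold change was -0.15 (adjusted p = 0.687, limma). Sst, encoding somatostatin (chr16:23889581-23890844, minus strand), measured 4231, 4640.2, 4753 and 4333 FPKM in the CD mice and 3917, 3774, 3840.4 and 3868 FPKM in the HFD mice. All HFD mice lay below all CD mice in Sst, at 4489 ± 248 FPKM for CD against 3849.9 ± 59.6 FPKM for HFD (mean ± SD, n = 4 each), and the difference did not pass the adjusted test (log2 fold change -0.22 ± 0.06 (SE), limma adjusted p = 0.6). Ppy and Pyy, both hormones of pancreatic polypeptide cells, had log2 fold changes of -0.10 and -0.07, with overlapping diets. Npy, which encodes neuropeptide Y, measured 10.01, 14.8, 15.2 and 25.1 FPKM in the CD mice and 8.18, 7.36, 6.47 and 12.4 FPKM in the HFD mice. Its values were highest in CD106 and lowest in HFD114 (log2 fold change -0.81 ± 0.28 (SE), limma adjusted p = 0.666).

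Genes of beta-cell identity, which are transcription factors apart from Ucn3, had mostly small negative fold changes on the FPKM scale, and none passed the adjusted test. Of 14 genes tested, 4 were positive, 1 was higher and 5 lower at an unadjusted p under 0.05, the groups stood apart in 3 (all lower), and the median log2 fold change was -0.10. With median ratio scaling 6 of 14 were positive with a median of -0.05. Nkx6-1, a factor that keeps beta cells from taking on other endocrine fates (chr5:101647720-101664711, minus strand), measured 191, 180.3, 178 and 184 FPKM in the CD mice and 157, 159, 155 and 154 FPKM in the HFD mice. This was the tightest separation of the list, with every CD mouse above every HFD mouse, and the values were 183 ± 5.5 FPKM for CD against 156 ± 2.29 FPKM for HFD (mean ± SD, n = 4 each) (log2 fold change -0.23 ± 0.05 (SE), limma adjusted p = 0.55). Neurod1 and Foxa2, which act in endocrine differentiation, also had groups that did not overlap, with log2 fold changes of -0.21 and -0.20. Insm1 (-0.23) and Rfx6 (-0.32) had overlapping groups. Ucn3, a peptide of mature beta cells, was the 1 higher gene and measured 392, 328, 333 and 312.65 FPKM in the CD mice and 406, 406, 404.63 and 389 FPKM in the HFD mice. CD101 lay within the HFD range of Ucn3, and the values of the other 3 CD mice were below it (log2 fold change 0.24 ± 0.07 (SE), limma adjusted p = 0.6). Mafa, which drives insulin transcription in mature beta cells, measured 124, 119, 131 and 135 FPKM in the CD mice and 69.6, 210.97, 252 and 135 FPKM in the HFD mice. The HFD mice spread from below every CD mouse to far above them, so Mafa differed more among HFD mice than between the diets. Pdx1, the central factor of the pancreas and of beta cells, had a log2 fold change of -0.01 (95% interval from -0.20 to 0.18).

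Aldh1a3, a retinaldehyde dehydrogenase used as a mark of dedifferentiating beta cells, had higher values in HFD mice at low abundance. It measured 1.06, 0.96, 1.32 and 1.33 FPKM in the CD mice and 1.52, 3.41, 3.05 and 2.05 FPKM in the HFD mice (chr7:66390892-66427477, minus strand). Every HFD mouse lay above every CD mouse, with HFD113 and HFD114 highest. The difference did not pass the adjusted test (log2 fold change 0.66 ± 0.16 (SE), limma adjusted p = 0.55). Over the list of genes normally silent or low in beta cells, 8 were tested, 1 was higher and 0 lower at an unadjusted p under 0.05, and the median was -0.07, so Aldh1a3 stood alone in it.

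Identity genes of alpha and delta cells had a median log2 fold change of -0.15 over 9 tested, with 1 positive, 0 higher and 2 lower at an unadjusted p under 0.05. Irx1 and Irx2, alpha-cell factors of the Iroquois family, had log2 fold changes of 0.04 and -0.15, and the delta-cell genes Hhex and Rbp4 had -0.01 and -0.03. The summed FPKM of the delta-cell markers Sst, Hhex, Rbp4 and Ghsr was 4311 to 4844 in CD and 3857 to 3996 in HFD mice, nearly all of it Sst, and the ranges did not overlap. The sum of the alpha-cell markers was 14099 to 15069 in CD and 11784 to 14319 in HFD mice, and that of the beta-cell markers was 742038 to 853357 and 784117 to 994909, both with overlap. In bulk islet RNA, fewer cells of a type and less RNA per cell cannot be told apart.

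**Figure D1:**
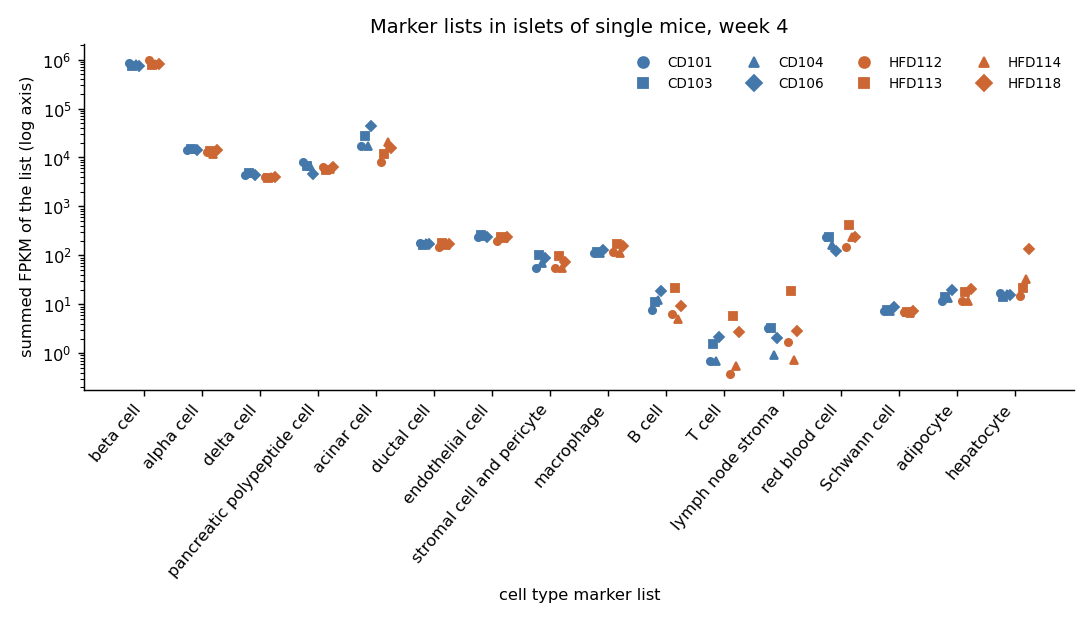
Summed FPKM of the markers of 16 cell types in each of the 8 mice at week 4, on a log axis, with 1 point per mouse coloured by diet. The diets do not overlap for delta-cell markers, acinar-cell markers run from 8023 in HFD112 to 43266 in CD106, and HFD113 and HFD118 stand apart for lymph node and hepatocyte markers.

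Genes for glucose handling and insulin secretion differed little. Of 10 genes of glucose uptake and sensing, 1 was higher and 1 lower at an unadjusted p under 0.05 (median 0.03). Slc2a2, the glucose transporter GLUT2 of mouse beta cells (chr3:28697903-28728361, plus strand), measured 302, 283, 252 and 317 FPKM in the CD mice and 257, 218, 202.76 and 259 FPKM in the HFD mice. It had its lowest values in HFD113 and HFD114, while HFD112 and HFD118 lay just above the lowest CD mouse (log2 fold change -0.30 ± 0.10 (SE), limma adjusted p = 0.6). G6pc2, an islet subunit of glucose-6-phosphatase, measured 1202, 1490.2, 1333 and 1208 FPKM in the CD mice and 2101, 1291, 1201 and 1461 FPKM in the HFD mice, with HFD112 far above the other 7 mice. Mpc1, a subunit of the carrier that brings pyruvate into mitochondria, had non-overlapping groups at 32.8 ± 1.45 FPKM for CD against 36.4 ± 1.64 FPKM for HFD (mean ± SD, n = 4 each) (log2 fold change 0.15 ± 0.06 (SE), limma adjusted p = 0.666). Of 13 genes of KATP, calcium and other channels, 0 were higher and 0 lower (median -0.07). Of 17 exocytosis genes, 0 were higher and 1 lower (median -0.02), and of 11 nutrient and incretin receptor genes, 1 was higher and 1 lower (median -0.08). Of 13 genes for prohormone processing and granule proteins, 2 were higher and 0 lower (median 0.00). Among them, Chga, the granule protein chromogranin A, measured 6548, 6122, 6290.5 and 5719 FPKM in the CD mice and 6856, 6994, 6874 and 6653 FPKM in the HFD mice. Every HFD mouse lay above every CD mouse (log2 fold change 0.15 ± 0.06 (SE), limma adjusted p = 0.666). Pcsk2, a convertase that cleaves prohormones, had the opposite order with non-overlapping groups, 963 ± 47.6 FPKM for CD against 883 ± 8.65 FPKM for HFD (mean ± SD, n = 4 each) (log2 fold change -0.12 ± 0.06 (SE), limma adjusted p = 0.675).

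Genes of cholesterol synthesis and uptake had more positive fold changes, as a group, than genes at large. This pathway is switched on by SREBP-2 when sterol in the ER membrane runs low. All 19 genes of the list were tested and all 19 had a positive log2 fold change, with 5 higher and 0 lower at an unadjusted p under 0.05 and a median of 0.20 beside -0.03 over all genes. With the acinar genes left out of the total, 17 of 19 were positive, and with the acinar level as a covariate 16 were positive. No member passed the adjusted test in the 8 libraries. Fdps, which makes farnesyl pyrophosphate (chr3:89093588-89101967, minus strand), measured 26.5, 24.7, 26.8 and 24.4 FPKM in the CD mice and 40.8, 35.5, 38.99 and 27.7 FPKM in the HFD mice. Every HFD mouse was above every CD mouse, with HFD118 closest to the CD range (log2 fold change 0.45 ± 0.10 (SE), limma adjusted p = 0.55). Dhcr7, which catalyses the last step to cholesterol (chr7:143823167-143848410, plus strand), measured 7.06, 6.84, 7.76 and 6.72 FPKM in the CD mice and 10.2, 11.2, 11.4 and 7.89 FPKM in the HFD mice. Its groups did not overlap either, and HFD118 was again the lowest HFD mouse (log2 fold change 0.46 ± 0.11 (SE), limma adjusted p = 0.55). Msmo1, a sterol C4 demethylation enzyme, measured 27.9, 29.2, 34.1 and 23.9 FPKM in the CD mice and 50.6, 39.4, 39.1 and 28.2 FPKM in the HFD mice, with HFD112 the highest (log2 fold change 0.42 ± 0.16 (SE), limma adjusted p = 0.666). Cyp51, the sterol 14-demethylase, had HFD118 within the CD range, at 9.1 ± 0.762 FPKM for CD against 11.7 ± 2.06 FPKM for HFD (mean ± SD, n = 4 each) (log2 fold change 0.32 ± 0.12 (SE), limma adjusted p = 0.666). Insig1, a sterol sensor partner, was above all CD mice in HFD112 and HFD113 only, at 35.9, 41.1, 50.6 and 39.6 FPKM in the CD mice and 61.98, 58.4, 48.01 and 36.4 FPKM in the HFD mice. Without HFD118, Fdps passed the adjusted test (log2 fold change 0.57, limma adjusted p = 0.0391), whereas Dhcr7 (0.56, adjusted p = 0.0885) did not.

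The promoters of the sterol genes are shown because the genes of the list had the same sign. The 250 bases before the 5′-most start listed in a RefSeq promoter table (GRCm38.p6) were taken, 11 of 19 genes had an entry, and both strands were searched for CCAAT, the motif bound by NF-Y, and for TCACNCCAC, a form of the sterol regulatory element bound by SREBPs. CCAAT was found in 10 of the 11, beside 34.5% of all 27025 promoters of this length. TCACNCCAC was found in 1 of the 11, Hmgcs1, beside 1.03% of all promoters. A match is a description of letters and not of a binding site. In the lines below, capitals mark CCAAT or its reverse complement.
Msmo1 (chr8:64733579-64733828, minus strand): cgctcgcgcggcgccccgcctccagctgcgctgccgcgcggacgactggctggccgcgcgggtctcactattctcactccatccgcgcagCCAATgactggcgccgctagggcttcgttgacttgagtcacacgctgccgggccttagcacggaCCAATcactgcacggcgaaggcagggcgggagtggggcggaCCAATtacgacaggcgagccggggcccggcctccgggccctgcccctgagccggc
Cyp51 (chr5:4104698-4104947, minus strand): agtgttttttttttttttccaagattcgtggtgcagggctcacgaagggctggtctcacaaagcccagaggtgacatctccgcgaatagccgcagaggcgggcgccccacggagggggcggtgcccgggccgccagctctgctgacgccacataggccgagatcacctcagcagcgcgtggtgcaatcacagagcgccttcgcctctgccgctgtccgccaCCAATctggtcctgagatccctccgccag
The Msmo1 window holds 3 CCAAT motifs and the Cyp51 window 1. The window of Dhcr7, not shown, was the 1 of the 11 without CCAAT and held no TCACNCCAC either.

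Genes of fatty acid use had medians near that of all genes. Of 27 genes of fatty acid uptake and oxidation, 1 was higher and 2 lower at an unadjusted p under 0.05 (median -0.04), and of 13 lipogenesis genes 2 were higher and 1 lower (median 0.03). Pdk4, a kinase that shuts off pyruvate dehydrogenase and is a known target of PPAR factors, measured 4.51, 6.16, 5.96 and 5.65 FPKM in the CD mice and 3.83, 3.62, 2.66 and 4.11 FPKM in the HFD mice. All HFD mice lay below all CD mice (log2 fold change -0.53 ± 0.12 (SE), limma adjusted p = 0.55). Thrsp, a regulator of lipogenesis, measured 2.63, 2.93, 2.47 and 2.73 FPKM in the CD mice and 2.31, 1.37, 1.82 and 1.53 FPKM in the HFD mice, also without overlap (log2 fold change -0.43 ± 0.11 (SE), limma adjusted p = 0.6). Acot2, a mitochondrial acyl-CoA thioesterase, had non-overlapping groups at a smaller difference (log2 fold change -0.22 ± 0.08 (SE), limma adjusted p = 0.666). Hadha, a subunit of the trifunctional protein of beta-oxidation, was the 1 higher gene (log2 fold change 0.14 ± 0.06 (SE), limma adjusted p = 0.671). Srebf1, encoding the SREBP-1 factors of lipogenesis, measured 29.1, 29.3, 31.6 and 25.6 FPKM in the CD mice and 30.8, 38.3, 39.7 and 29.2 FPKM in the HFD mice, with HFD113 and HFD114 above all other mice. Cd36, the fatty acid transporter, and Plin2, a lipid droplet coat protein, had log2 fold changes of 0.08 and -0.07.

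ER chaperone genes had higher values than in CD mice in 3 of the 4 HFD mice and values at or below CD level in HFD118. Of 26 genes of the unfolded protein response, 20 were positive, 1 was higher and 1 lower at an unadjusted p under 0.05, and the median was 0.13. Their summed FPKM was 3150 to 3457 in CD mice, 3847 to 4268 in HFD112, HFD113 and HFD114, and 2966 in HFD118, the lowest of all 8 mice. Sdf2l1, an ER chaperone cofactor induced by the unfolded protein response (chr16:17130138-17132383, minus strand), measured 58.7, 60.7, 58.9 and 55.3 FPKM in the CD mice and 96.5, 85.5, 116 and 47.96 FPKM in the HFD mice. Fkbp11, an ER prolyl isomerase of secretory cells that is not on the list and was named after its values were seen (chr15:98724366-98728198, minus strand), measured 28.8, 29.04, 31.3 and 29.9 FPKM in the CD mice and 60.3, 48.6, 58.9 and 25.2 FPKM in the HFD mice. In both genes 3 HFD mice lay well above a tight CD group and HFD118 lay below it, so that the SD in HFD mice, 28.5 FPKM for Sdf2l1 and 16.2 for Fkbp11, was many times that in CD mice, 2.28 and 1.13. With all 8 libraries neither passed the adjusted test (log2 fold change 0.49 ± 0.24 (SE), limma adjusted p = 0.696 for Sdf2l1 and log2 fold change 0.60 ± 0.26 (SE), limma adjusted p = 0.675 for Fkbp11). Without HFD118 both did, at a log2 fold change of 0.74 (limma adjusted p = 0.0391) for Sdf2l1 and 0.88 (adjusted p = 0.00611) for Fkbp11, and these with Fdps were the only 3 genes called when any 1 mouse was left out. Each of the 8 mice was left out in turn. Pdia6, a disulfide isomerase, measured 206, 193, 178 and 189.7 FPKM in the CD mice and 282, 244, 274 and 164 FPKM in the HFD mice, and Hspa5, the main ER chaperone BiP, 486, 483, 412 and 466 FPKM in the CD mice and 530.5, 546, 661 and 416.21 FPKM in the HFD mice. HFD118 was the lowest of all 8 mice in Pdia6 and next to lowest in Hspa5, while the highest was HFD112 in Pdia6 and HFD114 in Hspa5. Canx, the lectin chaperone calnexin, was the 1 member whose groups did not overlap, at 98.9 ± 3.03 FPKM for CD against 115 ± 6.17 FPKM for HFD (mean ± SD, n = 4 each) (log2 fold change 0.21 ± 0.06 (SE), limma adjusted p = 0.6).

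Trib3 had lower values in 3 of the 4 HFD mice than in any CD mouse, and Txnip, Ddit4 and Ldha were high in HFD118 alone. Trib3, a pseudokinase induced by ATF4 and CHOP, measured 4.33, 3.97, 3.14 and 6.42 FPKM in the CD mice and 3.58, 2.62, 1.88 and 1.75 FPKM in the HFD mice. It was the 1 lower gene of the unfolded protein response list, with HFD112 within the CD range (log2 fold change -0.66 ± 0.20 (SE), limma adjusted p = 0.6). Sesn2, a stress-induced regulator of mTORC1 (chr4:132492804-132510456, minus strand), measured 21.6, 24.4, 22.4 and 22.8 FPKM in the CD mice and 17.8, 17.5, 17.8 and 15.3 FPKM in the HFD mice. All HFD mice lay below all CD mice, and its unadjusted p of 0.000137 was the lowest of all genes tested (log2 fold change -0.40 ± 0.07 (SE), limma adjusted p = 0.55). Txnip, a glucose-responsive inhibitor of thioredoxin, measured 162, 86.3, 115 and 132 FPKM in the CD mice and 85.6, 73.9, 73.6 and 682 FPKM in the HFD mice, with HFD118 alone far above the rest. Ddit4, an mTORC1 inhibitor induced by hypoxia and glucocorticoids, measured 19.5, 18.3, 28.9 and 21.6 FPKM in the CD mice and 20.2, 16.7, 12.9 and 87.2 FPKM in the HFD mice, again with HFD118 alone high. Ldha, lactate dehydrogenase A, which is normally low in beta cells, measured 6.36, 9.03, 6.57 and 9.14 FPKM in the CD mice and 4.61, 9.03, 5.07 and 34.2 FPKM in the HFD mice, with HFD118 once more alone. HFD118 also stood apart in hepatocyte markers, whose sum was 136 FPKM in HFD118 and 13.8 to 33.2 in the other mice. The part of this library in the ER results is given by the values without it, above.

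**Figure D2:**
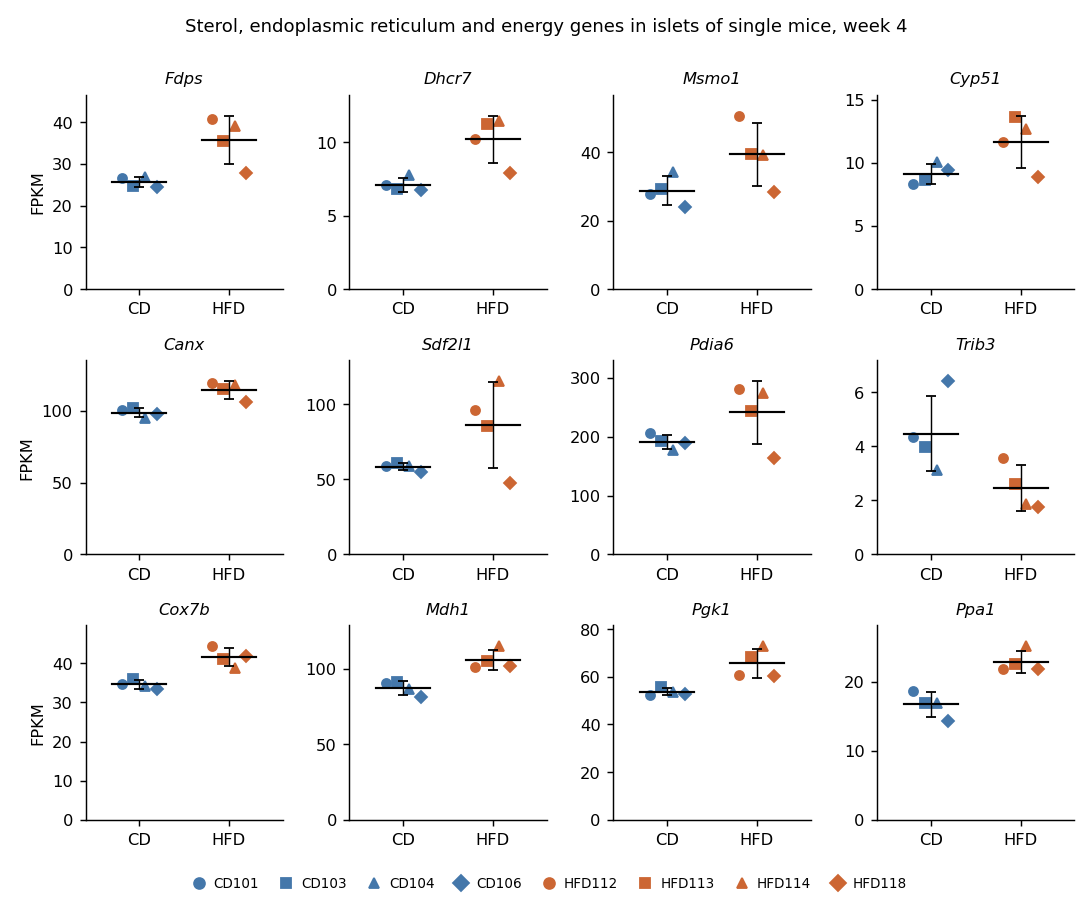
FPKM per mouse of 12 genes of sterol synthesis, the ER, and energy metabolism at week 4, with 1 point per mouse, a bar at the mean of each diet and error bars of 1 SD (n = 4 each). HFD118 lies at or near CD level for Fdps, Dhcr7, Msmo1, Cyp51, Sdf2l1 and Pdia6 but with the other HFD mice for Cox7b, Mdh1, Pgk1 and Ppa1.

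Genes of the respiratory chain and ATP synthase mostly had positive fold changes on the FPKM scale, and none passed the adjusted test. Of 79 genes of the respiratory chain and ATP synthase tested, 72 were positive, 11 were higher and 0 lower at an unadjusted p under 0.05, and the groups stood apart in 10, all higher. The median log2 fold change was 0.09. With the acinar genes left out of the total, however, 42 of 79 were positive with a median of 0.01, so the sign of the group depends on the scaling. The median of all genes was -0.03 on the FPKM scale and -0.11 with the acinar genes left out. In both, the median of the group was above it. Cox7b, a subunit of cytochrome c oxidase (chrX:106012062-106022450, plus strand), measured 34.8, 36.1, 34.3 and 33.4 FPKM in the CD mice and 44.4, 41.2, 38.9 and 41.8 FPKM in the HFD mice. Every HFD mouse was above every CD mouse (log2 fold change 0.25 ± 0.06 (SE), limma adjusted p = 0.55). Ndufa12, of complex I, also had groups apart, at 50 ± 3.49 FPKM for CD against 58.9 ± 2.41 FPKM for HFD (mean ± SD, n = 4 each) (log2 fold change 0.24 ± 0.07 (SE), limma adjusted p = 0.6). Uqcrb, of complex III, was at 96.1 ± 3.26 FPKM for CD against 111 ± 5.22 FPKM for HFD (mean ± SD, n = 4 each) (log2 fold change 0.21 ± 0.06 (SE), limma adjusted p = 0.6). Ndufa4 and Uqcrq had groups apart too, with log2 fold changes of 0.20 and 0.23.

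Enzymes upstream of the chain mostly had the same sign on the FPKM scale. Of 20 genes of pyruvate dehydrogenase and the citrate cycle, 16 were positive, with 3 higher and 0 lower at an unadjusted p under 0.05 (median 0.10), but 11 of 20 were positive with a median of 0.02 with the acinar genes left out of the total. Of 13 glycolysis genes, 12 were positive, with 2 higher and 0 lower (median 0.08), but 6 of 13 were positive under that scaling (median -0.01). The median of all genes under that scaling was -0.11, below the medians of both lists. Mdh1, the cytosolic malate dehydrogenase of the NADH shuttle (chr11:21556692-21571934, minus strand), measured 90.4, 91.4, 86.5 and 81.1 FPKM in the CD mice and 100.98, 105, 115 and 102 FPKM in the HFD mice. Its groups did not overlap (log2 fold change 0.27 ± 0.07 (SE), limma adjusted p = 0.55). Pgk1, phosphoglycerate kinase of glycolysis (chrX:106187100-106203699, plus strand), measured 52.5, 55.8, 53.8 and 52.98 FPKM in the CD mice and 60.8, 68.5, 72.8 and 60.5 FPKM in the HFD mice. HFD113 and HFD114 were highest and the groups did not overlap (log2 fold change 0.28 ± 0.07 (SE), limma adjusted p = 0.568). Tpi1, triose phosphate isomerase, had overlapping groups (log2 fold change 0.20 ± 0.08 (SE), limma adjusted p = 0.666). Ppa1, the cytosolic inorganic pyrophosphatase (chr10:61648621-61674165, plus strand), had the lowest unadjusted p among the genes higher in HFD (0.000292) and measured 18.7, 17, 17 and 14.3 FPKM in the CD mice and 21.9, 22.6, 25.2 and 21.9 FPKM in the HFD mice. The lowest HFD mouse exceeded the highest CD mouse (log2 fold change 0.43 ± 0.08 (SE), limma adjusted p = 0.55). Of 76 cytosolic ribosomal protein genes, 21 were positive with a median of -0.03, and 47 were positive with median ratio scaling. Of 37 proteasome subunits, 29 were positive with a median of 0.05, and 12 were positive with the acinar genes left out (median -0.03, also above that of all genes).

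**Figure D3:**
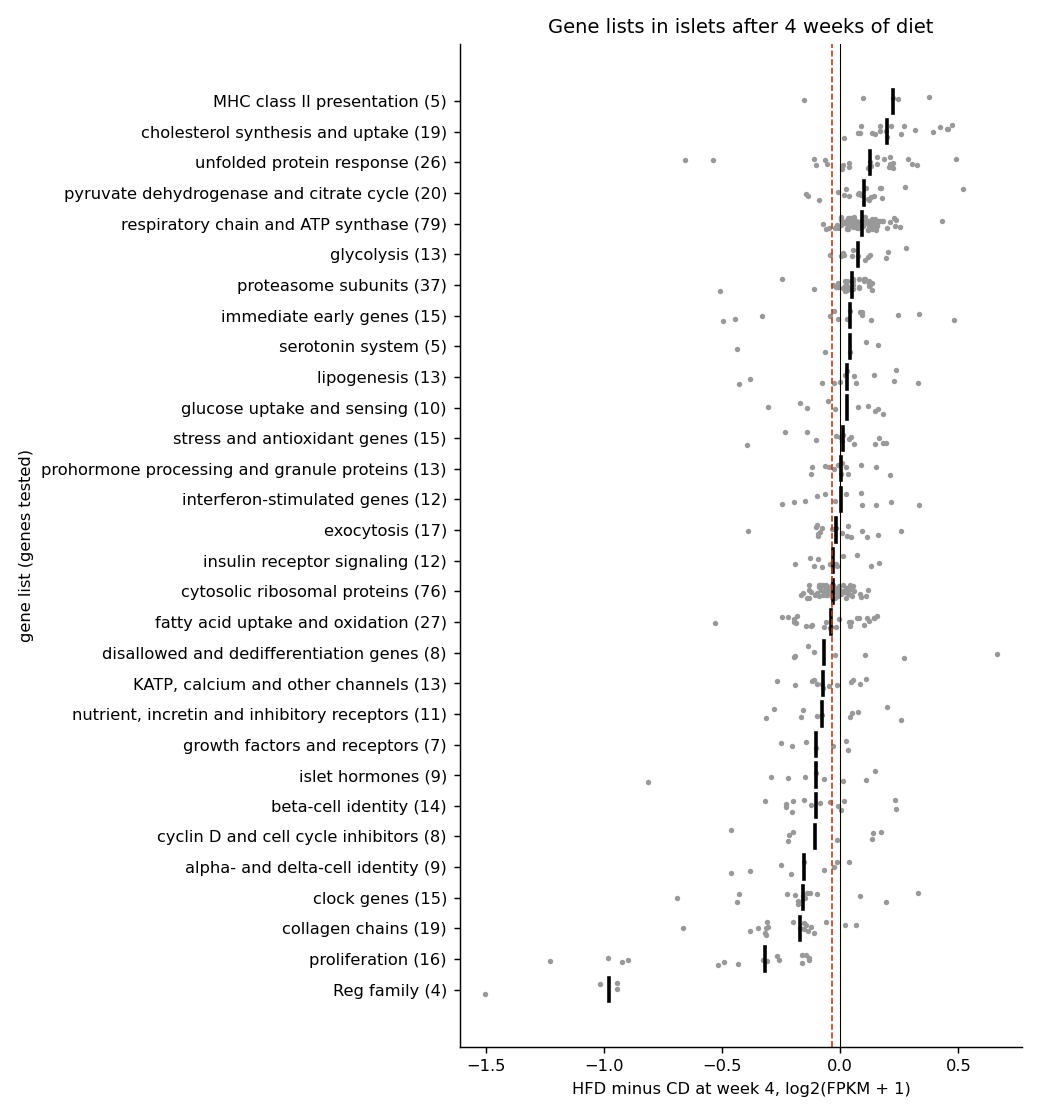
Log2 fold change (HFD against CD, week 4) of each tested gene in the gene lists, as grey points with a black bar at the list median and a red dashed line at the median of all 11569 genes tested. Cholesterol genes lie to the positive side with a median of 0.20, and proliferation and Reg genes to the negative side with medians of -0.32 and -0.98.

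Cell division genes had lower values in HFD islets than in 3 of the 4 CD mice. Adult islet cells divide rarely, so these transcripts are scarce. Of 30 proliferation genes, 16 passed the filter on low values, 0 were higher and 4 lower at an unadjusted p under 0.05, 0 were positive and the median log2 fold change was -0.32. The group is given as a description, because a scarce gene could pass the filter through the diet in which it was higher. Summed FPKM over all 30 genes was 58.7, 89.4, 104.31 and 173 in the CD mice and 63.3, 64.7, 66.1 and 55.5 in the HFD mice. The HFD mice were alike, whereas the CD mice spread widely. CD106 had the highest value of all 8 mice in 16 of the 16 tested genes, and CD101 lay within or below the HFD range in 15 of them. In 10 of the 16 genes, CD103, CD104 and CD106 all lay above every HFD mouse. CD106 also had the highest acinar sum, and the part of acinar cells in these values was not tested beyond the fit with the acinar level as a covariate, in which 2 of the 16 genes were positive and the median was -0.13. Mki67, the standard marker of cycling cells, measured 0.52, 1.77, 2.4 and 4.89 FPKM in the CD mice and 0.73, 0.62, 0.79 and 0.28 FPKM in the HFD mice. Top2a, topoisomerase IIα of dividing cells, measured 0.99, 3.57, 4.87 and 11.2 FPKM in the CD mice and 1.31, 0.96, 1.68 and 0.77 FPKM in the HFD mice. Cdk1, the mitotic kinase, measured 0.28, 1.17, 2.16 and 4.42 FPKM in the CD mice and 0.57, 0.32, 0.57 and 0.38 FPKM in the HFD mice. In all 3 genes CD101 was at the level of the HFD mice.

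Regulators of the G1 phase were a separate list. Of 8 genes of D cyclins and cell cycle inhibitors tested, 1 was higher and 2 lower at an unadjusted p under 0.05 (median -0.11). The log2 fold changes ran from -0.46 to 0.17, with 3 positive and 5 negative. Ccnd2, the main D cyclin of mouse beta cells (chr6:127069665-127152188, minus strand), measured 135, 156, 147 and 153 FPKM in the CD mice and 157, 162, 178 and 168 FPKM in the HFD mice. Every HFD mouse was above every CD mouse (log2 fold change 0.17 ± 0.07 (SE), limma adjusted p = 0.666). Cdkn1b, which encodes the inhibitor p27, measured 28.7, 28.8, 27.7 and 28.8 FPKM in the CD mice and 22.9, 26.01, 25.6 and 24.3 FPKM in the HFD mice. Every HFD mouse was below every CD mouse (log2 fold change -0.20 ± 0.06 (SE), limma adjusted p = 0.6).

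**Figure D4:**
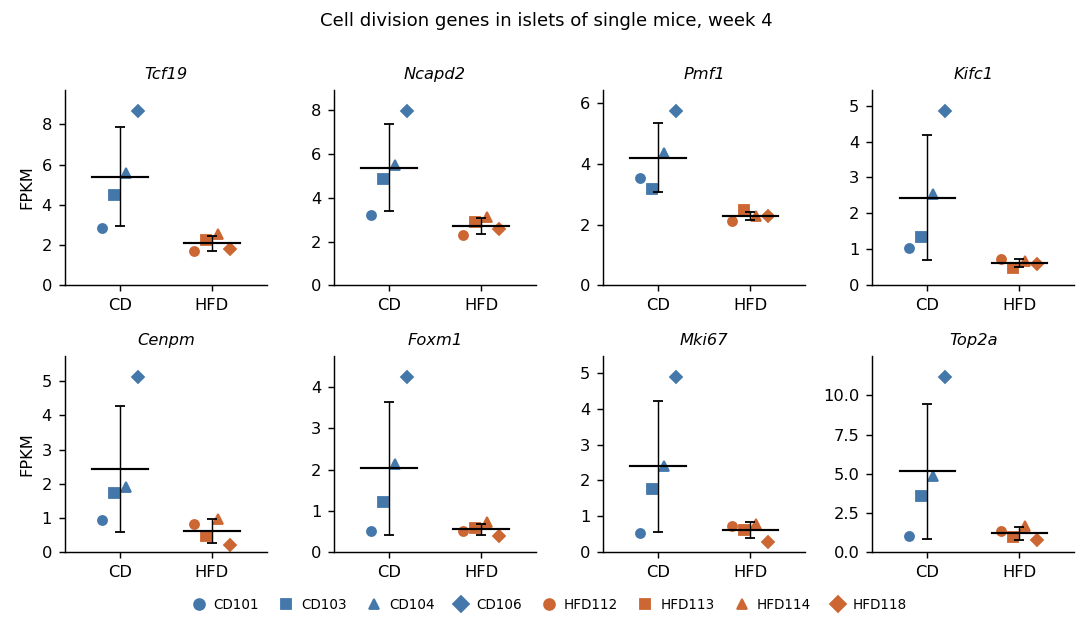
FPKM per mouse of 8 cell cycle genes at week 4, with 1 point per mouse, a bar at the mean of each diet and error bars of 1 SD (n = 4 each). The CD mice are spread with CD106 highest in every panel, and the HFD mice lie close together near the lowest CD mouse.

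When the spread was estimated from all 48 islet libraries, some cell cycle genes passed the test for week 4. In this fit all 12 groups of diet and week had their own mean and shared 1 variance per gene, and 12378 genes were tested. At an adjusted p under 0.05, 2 genes were higher in HFD at week 4 (0.0162%) and 15 were lower (0.121%), with 0 past a log2 fold change of 1 in size. Tcf19, a chromatin-binding factor of the cell cycle that is also expressed in beta cells (chr17:35512735-35516824, minus strand), measured 2.84, 4.5, 5.57 and 8.69 FPKM in the CD mice and 1.73, 2.27, 2.53 and 1.83 FPKM in the HFD mice. Its groups did not overlap (log2 fold change -0.98 ± 0.16 (SE), limma adjusted p = 0.00229). Ncapd2, a subunit of condensin I (chr6:125168007-125191748, minus strand), measured 3.21, 4.84, 5.49 and 7.98 FPKM in the CD mice and 2.28, 2.87, 3.13 and 2.55 FPKM in the HFD mice, also without overlap (log2 fold change -0.74 ± 0.13 (SE), limma adjusted p = 0.00485). Pmf1, of the MIS12 kinetochore complex (chr3:88394138-88410403, minus strand), measured 3.54, 3.18, 4.35 and 5.76 FPKM in the CD mice and 2.12, 2.47, 2.28 and 2.27 FPKM in the HFD mice (log2 fold change -0.64 ± 0.11 (SE), limma adjusted p = 0.00485). Kifc1, a minus-end kinesin of the spindle (chr17:33875664-33890633, minus strand), measured 1.03, 1.35, 2.53 and 4.86 FPKM in the CD mice and 0.74, 0.47, 0.69 and 0.6 FPKM in the HFD mice (log2 fold change -0.96 ± 0.19 (SE), limma adjusted p = 0.0156). Cenpm, a centromere protein, measured 0.94, 1.72, 1.9 and 5.12 FPKM in the CD mice and 0.81, 0.47, 0.98 and 0.2 FPKM in the HFD mice (log2 fold change -0.97 ± 0.20 (SE), limma adjusted p = 0.0222). Foxm1, the factor that drives mitotic genes, measured 0.52, 1.22, 2.14 and 4.24 FPKM in the CD mice and 0.51, 0.58, 0.72 and 0.39 FPKM in the HFD mice (log2 fold change -0.82 ± 0.18 (SE), limma adjusted p = 0.0375). Nuf2 of the NDC80 complex (-0.76), Ckap2l of the spindle (-0.87), Ncapg2 of condensin II (-0.58) and the chromokinesin Kif22 (-0.70) were lower as well. The last 4, and 4930579G24Rik (-0.63), which has no assigned function, lie beyond the first 10 lower genes and were named after their values were seen.

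The other called genes are not known for a part in mitosis. Dyrk1b, a kinase that holds cells in quiescence, measured 9, 10.5, 9.97 and 10.9 FPKM in the CD mice and 7.45, 7.35, 6.09 and 7.75 FPKM in the HFD mice, with no overlap (log2 fold change -0.45 ± 0.09 (SE), limma adjusted p = 0.0222). Chd2, a chromatin remodeler, measured 6.73, 7.49, 7.32 and 8.27 FPKM in the CD mice and 4.72, 5.81, 4.79 and 5.55 FPKM in the HFD mice, with no overlap (log2 fold change -0.44 ± 0.10 (SE), limma adjusted p = 0.0413). Crybb1, a beta-crystallin, measured 1.11, 1.07, 0.99 and 0.88 FPKM in the CD mice and 0.42, 0.59, 0.42 and 0.37 FPKM in the HFD mice (log2 fold change -0.47 ± 0.10 (SE), limma adjusted p = 0.0222). Nutf2-ps2, a pseudogene whose reads cannot be told from those of its parent gene with certainty, measured 2.68, 4.27, 4.38 and 5.56 FPKM in the CD mice and 4.56, 1.45, 1.91 and 1.26 FPKM in the HFD mice, with HFD112 inside the CD range. It reached 1 FPKM only in week 4 libraries, all 8 of them, with a maximum of 0.27 FPKM in later weeks. The 2 higher genes were Cgref1, a calcium-binding growth regulator, and Gde1, a glycerophosphodiester phosphodiesterase. Cgref1 measured 5.22, 5.03, 4.34 and 4.8 FPKM in the CD mice and 7.87, 7.2, 6.47 and 13 FPKM in the HFD mice (log2 fold change 0.68 ± 0.13 (SE), limma adjusted p = 0.0149). Gde1 (chr7:118688558-118705738, minus strand) measured 71.9, 68.3, 72.1 and 62.4 FPKM in the CD mice and 82.5, 93.05, 98.3 and 82.2 FPKM in the HFD mice (log2 fold change 0.37 ± 0.08 (SE), limma adjusted p = 0.0375). Both had every HFD mouse above every CD mouse.

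The 12-group result leaned on CD106 and on the pooled variance. The CD mice of week 4 were more variable than the pooled estimate in 12 of the 15 lower genes, with median SDs on the log2 scale of 0.52 in CD mice at week 4, 0.13 in HFD mice at week 4 and 0.21 pooled. CD106 had the highest value of the 8 mice in 14 of the 15, and CD101 the lowest of the CD mice in 13. The groups did not overlap in 7 of the 15. Of the 15 lower genes, 7 passed the filter on low values in the 8-library fit, and Nuf2, for example, reached 1 FPKM in 4 of the 48 libraries, 3 of them CD mice of week 4, so that its entry into the fit depended on the group where it was high. Like Nuf2, the genes Crybb1, Foxm1, Cenpm, Ckap2l, 4930579G24Rik, Ncapg2, Kif22 and Kifc1 reached 1 FPKM in 0 HFD mice of week 4. Some libraries of later weeks did reach it. Kifc1 passed the filter of the 8-library fit through its 4 CD mice alone. Without CD106, 0 genes were higher and 0 lower. Without CD101, whose values were near those of the HFD mice, 11 were higher and 109 lower. Without CD103 the counts were 1 and 7, without CD104 0 and 3, without HFD112 12 and 10, without HFD113 1 and 4, without HFD114 1 and 5, and without HFD118 4 and 6. With no filter on low values 5 were higher and 50 lower, with median ratio scaling 18 and 29, and with a pseudocount of 0.1, 1 and 4. With a filter of 5 FPKM, 0 were higher and 0 lower, but only 4 of the 17 genes were tested in that fit. With the rule of a 2-fold change, which no gene met in this fit, 31 genes were called without CD101 (1 higher and 30 lower) and 0 to 3 in the other alternatives. With the insulin genes left out of the total the counts were 1 and 7. With the acinar level as a covariate, 2 were higher and 19 lower, 15 of the 17 genes among them. Each of the 17 genes kept its sign in every one of these fits in which it was tested. The fits reuse most of the libraries that chose the genes, so a kept sign is not separate support. At the later weeks, 15 or 16 of the 17 had the same sign as at week 4, and 1 to 3 had it with an adjusted p under 0.05. The median log2 fold change of the 15 lower genes was -0.73 at week 4, which chose them, and from -0.22 to -0.15 at weeks 8 to 24.

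The promoters of the lower cell cycle genes are shown because cell cycle promoters are known to share CCAAT boxes and the cell cycle genes homology region, TTTGAA or TTCGAA, to which repressor complexes bind in resting cells. Of the 15 lower genes 12 had a RefSeq promoter (250 bases before the 5′-most start listed, GRCm38.p6), and both strands were searched. CCAAT was present in 8 of the 12 and TTTGAA or TTCGAA in 6 of the 12, beside 34.5% and 17.5% of all 27025 promoters. In the proliferation list, some of whose genes are among these, 19 of 24 promoters held CCAAT and 8 of 24 held TTTGAA or TTCGAA. The 12 include Dyrk1b and Crybb1, not known for a part in mitosis, and 4930579G24Rik, which has no assigned function. Nuf2 and Crybb1 held neither motif, and Pmf1 and Ncapg2 each held 1 TTTGAA or TTCGAA but no CCAAT. Those windows are not shown. The windows of 4 genes called in the 12-group fit, all with CCAAT, are given below, with both motifs and their reverse complements in capitals.
Tcf19 (chr17:35516825-35517074, minus strand): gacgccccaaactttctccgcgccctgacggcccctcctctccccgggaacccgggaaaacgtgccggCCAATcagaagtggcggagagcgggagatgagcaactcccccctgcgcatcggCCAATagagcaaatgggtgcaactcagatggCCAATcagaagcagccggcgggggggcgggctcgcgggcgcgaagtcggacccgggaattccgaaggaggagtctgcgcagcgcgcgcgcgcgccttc
Ncapd2 (chr6:125191587-125191836, minus strand): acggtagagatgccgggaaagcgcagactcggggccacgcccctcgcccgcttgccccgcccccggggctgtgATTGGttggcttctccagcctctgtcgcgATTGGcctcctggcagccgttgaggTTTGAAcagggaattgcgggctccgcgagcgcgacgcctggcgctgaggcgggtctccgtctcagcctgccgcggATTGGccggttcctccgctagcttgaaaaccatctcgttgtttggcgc
Cenpm (chr15:82244337-82244586, minus strand): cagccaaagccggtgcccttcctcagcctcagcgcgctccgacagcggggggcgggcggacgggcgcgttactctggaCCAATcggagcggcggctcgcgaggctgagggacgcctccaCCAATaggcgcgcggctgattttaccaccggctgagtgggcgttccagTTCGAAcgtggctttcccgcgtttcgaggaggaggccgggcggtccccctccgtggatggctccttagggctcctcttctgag
Kif22 (chr7:127042421-127042670, minus strand): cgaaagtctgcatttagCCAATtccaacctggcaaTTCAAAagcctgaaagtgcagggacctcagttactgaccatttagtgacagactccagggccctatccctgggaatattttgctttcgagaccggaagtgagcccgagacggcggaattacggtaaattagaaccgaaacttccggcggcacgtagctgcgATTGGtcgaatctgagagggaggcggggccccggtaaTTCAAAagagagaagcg
The start listed for Ncapd2, Cenpm and Kif22 is downstream of the first base of the gene span in the deposited table, so the Cenpm window lies wholly, and the other two windows partly, within that span. The Tcf19 window holds 3 CCAAT motifs and no TTTGAA or TTCGAA. Ncapd2 holds 3 CCAAT and 1 TTTGAA or TTCGAA, Cenpm 2 and 1, and Kif22 2 and 2.

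Among the 12 genes of lowest unadjusted p in each direction, none passed the adjusted test. Those lower in HFD, beside Sesn2, Pmf1, Dyrk1b and Chd2, were Tcp11, H1fx, Eef1a2, Dmpk, Polr2a, Tesc, Crebrf and Galns. H1fx, a linker histone, measured 20.1, 18.3, 22.6 and 24.2 FPKM in the CD mice and 17, 13.8, 12.8 and 14.8 FPKM in the HFD mice. Eef1a2, an elongation factor of excitable and endocrine cells, measured 14.7, 16.9, 12.5 and 13.04 FPKM in the CD mice and 10.7, 9.26, 8.86 and 10.3 FPKM in the HFD mice. Polr2a, the largest subunit of RNA polymerase II (chr11:69733997-69758636, minus strand), measured 33.1, 32.95, 29.3 and 30.7 FPKM in the CD mice and 26.8, 25.6, 23.6 and 25.1 FPKM in the HFD mice. In each of these the HFD values lay below all CD values, with log2 fold changes of -0.51, -0.50 and -0.31 and a limma adjusted p of 0.55 for all. The remaining 5 had groups apart with log2 fold changes from -0.56 (Tesc, a calcium-binding protein) to -0.31 (Dmpk, a protein kinase). Those higher, beside Ppa1, Gde1, Fdps, Dhcr7, Cox7b, Mdh1 and Aldh1a3, were Hist1h4j, Dnajc15, Gucy2c, Bag2 and Syt5. Gucy2c, guanylate cyclase C, measured 7.82, 7.89, 9 and 6.45 FPKM in the CD mice and 11.7, 13.2, 18.4 and 10.3 FPKM in the HFD mice, with HFD114 highest and the groups apart (log2 fold change 0.69 ± 0.16 (SE), limma adjusted p = 0.55). Dnajc15, a co-chaperone of the mitochondrial inner membrane, measured 14.3, 14.6, 12.9 and 13.3 FPKM in the CD mice and 17.4, 16.6, 18.1 and 16.6 FPKM in the HFD mice (log2 fold change 0.30 ± 0.07 (SE), limma adjusted p = 0.55). Bag2, a co-chaperone of HSP70, had a log2 fold change of 0.29. Syt5, a synaptotagmin of secretory granules, measured 23.4, 19.7, 20.1 and 23.1 FPKM in the CD mice and 29.8, 32.8, 34.4 and 23.4 FPKM in the HFD mice, with HFD118 within the CD range (log2 fold change 0.45 ± 0.11 (SE), limma adjusted p = 0.55). Hist1h4j belongs to the near-identical histone H4 genes, so its value (0.54) is uncertain.

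Among genes whose groups did not overlap, the largest differences were in acinar genes and in low-abundance genes. Higher in HFD were Tmem254c, Gucy2c, Cgref1, Aldh1a3, Pcp4 and Coq10b. Tmem254c, which has near-identical neighbours and is uncertain, measured 0.76, 1.18, 0.6 and 1.21 FPKM in the CD mice and 1.52, 2.39, 1.39 and 15.8 FPKM in the HFD mice, so that its difference was carried by HFD118. Pcp4, a calmodulin regulator, measured 6.84, 3.26, 6.36 and 5.45 FPKM in the CD mice and 11.1, 8.94, 8.06 and 7.02 FPKM in the HFD mice (log2 fold change 0.62 ± 0.19 (SE), limma adjusted p = 0.618). Coq10b, a coenzyme Q binding protein of mitochondria, measured 8.14, 8.06, 8.83 and 6.55 FPKM in the CD mice and 9.85, 16.8, 14.4 and 9.87 FPKM in the HFD mice (log2 fold change 0.60 ± 0.16 (SE), limma adjusted p = 0.6). Lower in HFD were Pla2g1b, Amy2a5, Gp2, Gal, Tcf19 and Kifc1, the last of which passed the filter on low values through its 4 CD mice alone. Gal, the neuropeptide galanin, measured 1.69, 3.72, 2.18 and 7.34 FPKM in the CD mice and 0.66, 0.88, 1.32 and 1.55 FPKM in the HFD mice, with CD106 highest (log2 fold change -1.05 ± 0.34 (SE), limma adjusted p = 0.623).

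Acinar genes had lower values in most HFD mice. Of 27 acinar markers tested, 1 was positive, 0 were higher and 4 lower at an unadjusted p under 0.05, and the median log2 fold change was -0.76. Their summed FPKM was 17537, 27692, 17019.6 and 43266 in the CD mice and 8023, 11592, 20974 and 15305 in the HFD mice, so HFD114 lay within the CD range. Pla2g1b, the pancreatic phospholipase A2, measured 48.95, 82.9, 51.5 and 125 FPKM in the CD mice and 19.6, 25.7, 38.8 and 32.99 FPKM in the HFD mice (log2 fold change -1.31 ± 0.36 (SE), limma adjusted p = 0.6). Amy2a5, a pancreatic amylase with near-identical copies, measured 5298, 9062, 5389 and 13629.5 FPKM in the CD mice and 1784, 3245, 4936 and 4194 FPKM in the HFD mice (log2 fold change -1.22 ± 0.43 (SE), limma adjusted p = 0.666). Gp2, the main protein of the zymogen granule membrane, measured 48.2, 76.7, 47.2 and 119 FPKM in the CD mice and 14.2, 26.2, 43.7 and 40.5 FPKM in the HFD mice (log2 fold change -1.22 ± 0.45 (SE), limma adjusted p = 0.666). The islets were picked by hand against acinar tissue, and how many acinar cells came along in each sample was not measured, so a difference in carried-over tissue and one in expression cannot be told apart. Acinar RNA takes part of each library's total, and with these genes left out of the total the median of all genes was -0.11.

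Reg genes, encoding secreted lectins of acinar and regenerating islet cells, were lower in value in HFD mice. All 4 tested had negative log2 fold changes, 3 of them at an unadjusted p under 0.05, with a median of -0.98. Reg1 measured 328, 340.4, 215 and 477 FPKM in the CD mice and 98.4, 173, 281 and 172 FPKM in the HFD mice (log2 fold change -0.94 ± 0.36 (SE), limma adjusted p = 0.666). Reg3b measured 19.9, 8.82, 4.37 and 10.4 FPKM in the CD mice and 0.6, 3.47, 3.67 and 4.84 FPKM in the HFD mice (log2 fold change -1.5 ± 0.54 (SE), limma adjusted p = 0.666), and Reg3d had a log2 fold change of -1.02 and Reg2 -0.95. HFD114 lay within the CD range of Reg1, and HFD114 was also the HFD mouse with the highest acinar sum. With the acinar level as a covariate all 4 were negative, with a median of -0.47.

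Matrix and vascular genes had mostly negative fold changes. Of 19 collagen genes tested, 2 were positive, 0 were higher and 4 lower at an unadjusted p under 0.05 (median -0.17, and 6 positive with the acinar level as a covariate). Col4a1 and Col4a2 encode the type IV chains of the basement membrane that lines islet capillaries. Col4a1 measured 28.6, 35.1, 27.4 and 34.4 FPKM in the CD mice and 24.4, 24.4, 22.4 and 28.4 FPKM in the HFD mice. Col4a2 (chr8:11312805-11449287, plus strand) measured 18.5, 22.8, 18.9 and 20.7 FPKM in the CD mice and 16.6, 16.5, 15.2 and 16.3 FPKM in the HFD mice. The groups did not overlap in Col4a2 (log2 fold change -0.30 ± 0.08 (SE), limma adjusted p = 0.55). Of 10 endothelial markers, 1 was positive and 1 lower (median -0.11), and of 10 stromal markers 1 was positive with 0 higher and 0 lower (median -0.24). The summed endothelial markers were 237 to 262 FPKM in CD and 199.7 to 242 in HFD mice. Col6a3, of the interstitial matrix, had a log2 fold change of -0.32 with groups apart.

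Immune markers differed by mouse more than by diet. Of 12 macrophage markers tested, 9 were positive, 3 were higher and 0 lower at an unadjusted p under 0.05 (median 0.21). Their sum was 109.9 to 126 FPKM in CD mice and 119.6, 169.8, 112.78 and 155 FPKM in the HFD mice, so the higher values were in HFD113 and HFD118. MHC class II genes summed to 144 to 172 in CD mice and to 124, 251, 137 and 216 in HFD mice, with the same 2 mice highest. HFD113 was also highest in B cell, T cell and lymph node stroma genes, at 21.9, 5.72 and 18.3 FPKM in sum, against at most 19.0, 2.76 and 3.29 in the other mice. No T cell marker passed the filter on low values, and the adipocyte markers Adipoq, Plin1, Cfd, Lep and Retn stayed at or below 0.09 FPKM in all 8 libraries. Of 12 interferon-stimulated genes, 1 was higher and 2 lower (median 0.00). The 2 lower ones, Usp18 and Rsad2, an interferon-induced protease of ISG15 and an antiviral enzyme, had log2 fold changes of -0.20 and -0.25 with groups apart. Of 15 clock genes, 3 were positive, with 0 higher and 1 lower (median -0.16). That gene, Nr1d1, the clock repressor REV-ERBα, measured 25.2, 37.01, 40.6 and 34.8 FPKM in the CD mice and 19.04, 20.4, 17.6 and 26.5 FPKM in the HFD mice, with HFD118 just above the lowest CD mouse (log2 fold change -0.69 ± 0.16 (SE), limma adjusted p = 0.55). The hour at which islets were taken is not given in the sources used here.

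The remaining lists had medians near that of all genes. Their shares of genes at an unadjusted p under 0.05 ran from 0% to 20%, beside 7.38% over all genes. With 5 to 15 genes tested in each, these shares are coarse. Of 12 genes of insulin receptor signaling, 0 were higher and 0 lower (median -0.03). Of 7 growth factor and receptor genes, 0 were higher and 1 lower (median -0.10). Of 15 stress and antioxidant genes 1 was higher and 1 lower (median 0.01), and of 15 immediate early genes 1 was higher and 1 lower (median 0.04). Of 5 genes of the serotonin system, through which islets are known to respond to pregnancy and metabolic load, 0 were higher and 1 lower (median 0.04).

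The week 4 effect was then set against the effect in later weeks, in the fit of all 48 islet libraries. The difference between the week 4 effect and the mean effect of weeks 8 to 24 passed an adjusted p under 0.05 in 243 genes, of which 129 were negative (1.04%) and the rest positive (0.921%). Most of these genes were ones with a small effect at week 4 and a large one later. In 229 of the 243 the mean later effect itself passed an adjusted p under 0.05, the week 4 effect was the larger in size in 46, and the median size of the effect was 0.11 at week 4 and 0.53 later. Gcg had log2 fold changes of -0.15 after 4 weeks, -0.58, -1.41, -2.25 and -2.07 after 8, 12, 16 and 20 weeks, and -2.93 after 24 weeks. The difference of its week 4 effect from the later mean was 1.70 ± 0.26 (SE), limma adjusted p = 0.000153. For Sst the difference was 1.53 ± 0.25 (SE), limma adjusted p = 0.000417, and for Pyy 1.43 ± 0.24 (SE), limma adjusted p = 0.000404. In all, 5 of 9 hormone genes, 5 of 6 alpha-cell markers, 4 of 4 delta-cell markers and 2 of 2 pancreatic polypeptide markers passed this contrast, in each case with the higher value at week 4. Ins1, Ins2 and Iapp did not pass it. The delta-cell sum, for comparison, was 2317 to 2959 FPKM in CD and 330.3 to 634 in HFD mice at week 24, beside the narrow gap at week 4.

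The genes of lowest p in this contrast were mostly of the same kind. Rcn3, an ER calcium-binding protein, had an effect of -0.08 at week 4 and a contrast of 0.95 ± 0.12 (SE), limma adjusted p = 7.42e-06. Mcoln3, an endolysosomal channel, had a contrast of 0.92 ± 0.13 (SE), limma adjusted p = 3.03e-05, and Edn3, the peptide endothelin-3, one of 0.99 ± 0.14 (SE), limma adjusted p = 3.03e-05. Ffar4, the long-chain fatty acid receptor GPR120, measured 3.86, 3.84, 3.81 and 4.23 FPKM in the CD mice and 3.02, 3.67, 3.9 and 3.53 FPKM in the HFD mice at week 4 and had a contrast of 0.84 ± 0.12 (SE), limma adjusted p = 3.03e-05. Kcnj12, an inward rectifier potassium channel, had a contrast of 1.40 ± 0.21 (SE), limma adjusted p = 0.000102, with Hhatl and Upp1 also positive. On the negative side, P3h2, a collagen prolyl hydroxylase, had an effect of 0.31 at week 4 and a contrast of -1.04 ± 0.14 (SE), limma adjusted p = 7.42e-06. Aldh1a3, described above, had log2 fold changes of 0.66 after 4 weeks, 1.56, 2.68, 3.02 and 1.91 after 8, 12, 16 and 20 weeks, and 3.01 after 24 weeks, and its contrast was -1.77 ± 0.39 (SE), limma adjusted p = 0.00815. Slc35f4, Brinp2, Cpne4, Dusp23, Lin7a, Adck3 and Vstm2a were likewise negative. Coq10b had a more positive effect at week 4 than later (0.68 ± 0.17 (SE), limma adjusted p = 0.0188). The cell cycle genes Tcf19, Ncapd2 and Cenpm had a more negative one, with a contrast of -0.71 ± 0.17 (SE), limma adjusted p = 0.0168 for Tcf19. These 3 genes were chosen by the same week 4 values that enter the contrast, so it is not separate support for them. Cenpm reached 1 FPKM in 3 CD mice and 0 HFD mice of week 4. Its maximum in later weeks was 1.45 FPKM, which leaves little room for a later effect on the log2(FPKM + 1) scale.

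**Figure D5:**
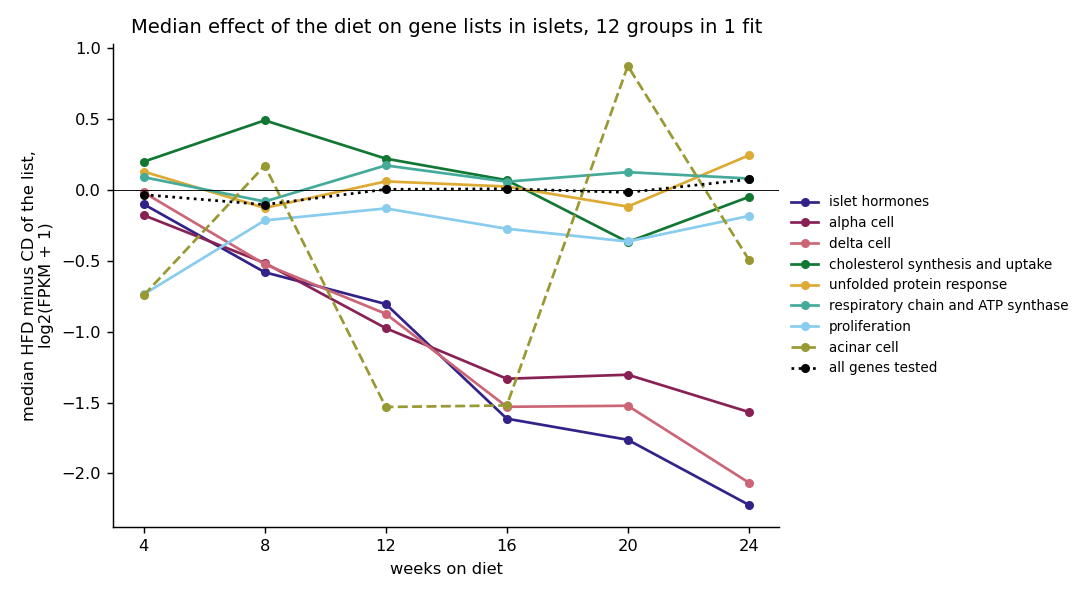
Median log2 fold change (HFD against CD) of gene lists at weeks 4 to 24, from the fit of 12 groups with 1 shared variance per gene. The hormone list goes from -0.10 at week 4 to -2.22 at week 24, the cholesterol list is highest at week 8 with 0.49, and the 26 proliferation genes tested in this fit have -0.74 at week 4, of which 10 were not tested in the 8-library fit (median -0.84) and the other 16 have -0.32.

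Against week 8 alone, the difference of effects passed in 3 genes with the more positive value at week 4 (0.0242%) and in 0 with the more negative one (0%). They were Yrdc, a tRNA modification enzyme, Rrp15, a ribosome assembly factor, and Meox1, a homeobox factor. Yrdc measured 19.5, 19.8, 18.7 and 18.4 FPKM in the CD mice and 18.7, 26.9, 25.1 and 20.5 FPKM in the HFD mice, an effect of 0.23 at week 4 beside -0.46 at week 8. The contrast was 0.69 ± 0.13 (SE, limma adjusted p = 0.033) for Yrdc, 0.75 for Rrp15 and 0.61 for Meox1. The 3 effects at week 4 were smaller in size than those at week 8. This count depended strongly on HFD112, as it was 341 positive and 37 negative without that mouse.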

How the data were processed

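Islet RNA of 8 mice at week 4, each mouse a separate sample, was compared by diet. The submitters' processing notes list HISAT2 2.0.4, Bowtie2 2.2.5, RSEM 1.1.12 and DESeq2 with the build GRCm38.p5, without saying which tool did what. The authors deposited FPKM values with 2 decimals, which divide fragments by gene length and by library total, so a very abundant gene lowers every other gene's value. The table has 21990 genes, of which 20155 carry values. Gene positions are those of the table. Gene identifiers matched RefSeq (GRCm38.p6) for 21823 genes. Columns of the authors' group averages, fold changes, test values, annotations, co-expression modules and time clusters were not used.

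In R 4.3.3, limma 3.58.1 with trend and robust variances was fitted to log2(FPKM + 1). Fold changes on this scale understate those of low genes. A gene was tested when 4 or more of the 8 libraries reached 1 FPKM, with Benjamini-Hochberg adjustment over all of them. A planned count test was not run because the table holds FPKM. A second fit gave all 12 islet groups (48 libraries) a mean each and tested genes that reached 1 FPKM in 4 or more of them. The insulin share was compared by an exact permutation test. The code was tested on simulated data. Tables were made with Python 3.11.15, pandas 2.3.3 and numpy 2.4.6 and figures with matplotlib 3.10.9. The alternatives were another pseudocount, other filters, other scalings, a plain limma fit, each mouse left out and, added after seeing the data, the acinar level as a covariate.

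Genes were named from 31 gene lists and 16 marker lists, as the 12 of lowest p in each direction, the 6 of largest fold change in each direction among genes without overlap, up to 10 in each direction called for week 4 with 12 groups in 1 fit, and up to 8 in each direction called in each contrast with later weeks. The comparison, the lists and the tests were chosen with earlier results of these data known. Some members of these lists are counted in them but are not reported here by name.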

Additional observations from a re-analysis of the deposited data

Results flagged for a closer look

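Single mice stood apart from the other 3 of their diet in the values below, by a gap test at the 95% level, which by chance flags about 1 in 20 groups. The test sets the gap against the range of the 4 values, so a flagged gap can be small, as for Cdkn1b and Ucn3. HFD118 did so for Txnip (682.44 FPKM), Ddit4 (87.17), Ldha (34.25), Tmem254c (15.79) and Hhatl (2.33), all above the other HFD mice, as was its hepatocyte marker sum of 135.66 FPKM. It also lay above them in Rbp4 (80.58) and below them in Ucn3 (389.34) and Sesn2 (15.33). HFD113 was high in Ndufa4 (162.78) and in the lymph node stroma sum (18.31), and HFD112 was low in Ghsr (0.51). Among CD mice, CD101 was low in Pcsk1 (159.73) and high in Upp1 (18.69), CD104 was high in Nkx2-2 (97.32) and low in Cdkn1b (27.69), and CD106 was high in Alb (0.61) and Ffar4 (4.23).

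The effect of the diet at week 4 differed from the mean effect of weeks 8 to 24 by the limma contrast in the following genes, given as the log2 difference (week 4 minus later). Among endocrine genes it was 1.70 for Gcg, 1.53 for Sst, 1.29 for Ppy, 1.43 for Pyy, 1.33 for Npy, 1.14 for Irx1, 0.97 for Irx2, 1.40 for Rbp4, 1.18 for Hhex and 0.54 for Ghsr, and it was -1.77 for Aldh1a3. Among genes lower in HFD at week 4 it was -0.71 for Tcf19, -0.53 for Ncapd2, -0.85 for Cenpm, -0.72 for Nutf2-ps2 and -0.48 for Dyrk1b. It was 0.93 for Eef1a2, 0.68 for Coq10b, -0.57 for Usp18, 0.95 for Rcn3, 0.92 for Mcoln3, 0.99 for Edn3, 0.84 for Ffar4, 1.40 for Kcnj12, 0.90 for Hhatl, 0.98 for Upp1 and 0.41 for Yrdc. It was -1.04 for P3h2, -1.13 for Slc35f4, -0.57 for Brinp2, -0.99 for Cpne4, -0.55 for Dusp23, -0.67 for Lin7a, -0.56 for Adck3 and -0.78 for Vstm2a. Against week 8 alone it was 0.69 for Yrdc, 0.75 for Rrp15 and 0.61 for Meox1. The genes named above as lower in HFD at week 4 were chosen by the same week 4 values, so their differences are not separate support. In later weeks Nutf2-ps2 did not exceed 0.27 FPKM and Cenpm did not exceed 1.45 FPKM. For these 2 genes the scale left little room for a later effect of the diet.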

How the results depend on the processing

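No paired analysis was possible because the HFD and CD mice carry different identifiers. Under the rule of adjusted p and a 2-fold change, 0 genes were called in every fit of the 8 libraries and in the fit of 12 groups. Of the alternatives to the latter, the one without CD101 called 31 and the others 0 to 3. At the adjusted p alone, 17 genes were called with all 12 groups in 1 fit. When 1 mouse was left out of that fit, the calls went from 0 without CD106 to 11 higher and 109 lower without CD101. In the fit of the 8 libraries, 0 to 3 genes were called when 1 mouse was left out, the 3 being called without HFD118. The count of 854 genes at an unadjusted p under 0.05 went from 523 (without CD104) to 1330 (without CD101) when 1 mouse was left out, being 545 without CD103, and was 565 with the acinar level as a covariate. That fit was added once the values had been seen. The count of 488 genes without overlap was 662 to 1614 when 1 mouse was left out, highest without CD101, 1154 without HFD118, 1099 without HFD112 and 817 without HFD113, since fewer mice overlap less. The 243 genes of the contrast with weeks 8 to 24 became 102 with a filter of 5 FPKM, 430 with median ratio scaling and 138 with acinar genes left out of the total, and 149 (without CD104 or HFD114) to 365 (without HFD112) when 1 mouse was left out. The 3 genes of the contrast with week 8 became 0 with no filter on low values, 1 with a filter of 5 FPKM, 20 with median ratio scaling, 38 with the insulin genes left out of the total, 0 with the acinar genes left out, 50 with the acinar level as a covariate, and 0 (without CD104 or CD106) to 378 (without HFD112) when 1 mouse was left out. It was 45 without CD101 or HFD118, 6 without HFD114 and 1 without HFD113. The cause of these changes was not tested. The insulin share differed by 1.04 to 2.97 percentage points when 1 mouse was left out. Of 117 genes named from the week 4 fit, 86 were tested in all 17 other fits, and of these 71 kept the sign of their fold change in all and 15 changed it in at least 1. The other 31 were not tested with the filter of 5 FPKM. No read depth was available to weigh the scarce genes.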
